A study of Mus musculus with 48 samples.

Results

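The non-clustered delta protocadherins are single-copy members of the cadherin superfamily, and all 10 named here (Pcdh1, Pcdh7, Pcdh8, Pcdh9, Pcdh10, Pcdh11x, Pcdh17, Pcdh18, Pcdh19 and Pcdh20) were found by symbol among the 48795 genes of the deposited count table. The family was chosen by the measured log2 difference of Pcdh20 between heterozygous Q140 and wild-type mice, where it stood among the largest. That difference ranked 3 of the 7293 genes with a positive difference and a mean log2 level of at least 1. The other 9 genes were taken by family membership. All 10 passed the filter on low counts that left 19714 genes for testing, and the lowest count of any member in any library was 101, for Pcdh18.

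RNA of the corpus striatum was sequenced in 48 mice of 6 genotypes on a C57BL/6 background, with 8 mice per genotype, 4 of each sex. Wild-type mice (WT) carried no altered allele. Q140 mice were heterozygous for the knock-in allele Q140, an expanded CAG repeat in the mouse Htt gene that models Huntington's disease. Msh3+/- and Msh3-/- mice had by their labels lost 1 or both alleles of Msh3, a DNA mismatch repair gene. A cross with each (Q140 X Msh3+/-, then Q140 X Msh3-/-) carried the heterozygous Q140 allele as well. No allele or agent was shared by all groups. The sample labels give an age of 12 months and the extraction text of the same labels gives 6 months, and which of them holds was not resolved. The design allows the effect of Q140 to be read on 3 Msh3 backgrounds and the effect of Msh3 loss with and without Q140.

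Delta protocadherins are transmembrane proteins with cadherin repeats outside the cell that bind the same protein on a neighbouring cell, mostly weakly, and that help sort axons and shape synapses. The delta-1 group (Pcdh1, Pcdh7, Pcdh9, Pcdh11x) carries a cytoplasmic motif that binds protein phosphatase 1, while several of the delta-2 group (Pcdh8, Pcdh10, Pcdh17, Pcdh18, Pcdh19) bind the WAVE complex, which drives branched actin assembly. Pcdh20 is usually placed outside both groups. In the striatum, Pcdh10 is known for its need in the growth of striatal axons and Pcdh17 for its place at corticobasal ganglia synapses.

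In GENCODE M21 (GRCm38), 4 members lay on chromosome 14 within 14.12 Mb, in the order Pcdh8, Pcdh17, Pcdh20 and Pcdh9. Pcdh20 (ENSMUSG00000050505) spanned chr14:88464743-88471396 on the minus strand. Pcdh10 (ENSMUSG00000049100) lay at chr3:45378398-45435623 on the plus strand and Pcdh19 (ENSMUSG00000051323) at chrX:133582860-133688987 on the minus strand. Pcdh20 and Pcdh18 overlapped no other annotated gene. The other 8 overlapped at least 1, from 1 for Pcdh10 to 15 for Pcdh7, and since the strand setting of the counting is not given in the sources used here, reads of overlapping and antisense genes may be counted in either.

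The bases before the start site are shown for Pcdh20, Pcdh10 and Pcdh19, because these 3 rose with Q140 on both Msh3 backgrounds, without overlap of the groups on Msh3-/-, and differ in their content of CG dinucleotides. Each line gives the 250 bases upstream of the RefSeq start (GRCm38.p6), read 5′ to 3′ on the gene's strand, with CG in capitals. The windows are chr14:88471397-88471646 for Pcdh20, chr3:45378148-45378397 for Pcdh10 and chrX:133688994-133689243 for Pcdh19.
Pcdh20: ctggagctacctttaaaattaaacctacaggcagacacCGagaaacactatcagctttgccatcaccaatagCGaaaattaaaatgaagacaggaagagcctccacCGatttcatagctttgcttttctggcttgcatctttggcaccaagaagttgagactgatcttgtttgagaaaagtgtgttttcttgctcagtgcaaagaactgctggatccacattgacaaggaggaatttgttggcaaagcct
Pcdh10: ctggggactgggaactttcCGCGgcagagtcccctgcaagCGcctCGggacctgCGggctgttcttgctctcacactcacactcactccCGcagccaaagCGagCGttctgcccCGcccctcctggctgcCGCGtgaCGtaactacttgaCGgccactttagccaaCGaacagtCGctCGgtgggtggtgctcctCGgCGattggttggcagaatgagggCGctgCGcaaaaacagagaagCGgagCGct
Pcdh19: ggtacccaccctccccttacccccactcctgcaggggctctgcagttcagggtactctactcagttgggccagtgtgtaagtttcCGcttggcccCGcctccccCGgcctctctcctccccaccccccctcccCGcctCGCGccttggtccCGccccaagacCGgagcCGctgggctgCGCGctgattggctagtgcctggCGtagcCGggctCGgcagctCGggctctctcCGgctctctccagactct

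The Pcdh20 stretch held 3 CG dinucleotides, against 22 in that of Pcdh10 and 16 in that of Pcdh19. Over the 300-base windows of the RefSeq table (250 bases before and 50 after a start), 31.4% of 32851 windows held fewer CG than the 4 of Pcdh20. For Pcdh10, with 24, that share was 80.0%, and for Pcdh19, with 18, it was 70.3%. Windows were found for 8 of the 10 members, with none for Pcdh1 and Pcdh11x, and Pcdh20 had the fewest CG of them. The others held from 11 (Pcdh7) to 26 (Pcdh17). The motif CCAAT, searched on both strands, was in the windows of 7 of the 8 matched members, Pcdh7 being without it, and in 37.4% of all windows. TATAAA, also on both strands, was in the Pcdh8 window alone of the 8, and in 13.6% of all. These are matches of letters and were not tested for any factor.

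Total counts per library ran from 38916064 to 60899661. The level of Msh3 RNA did not overlap between the 3 labelled Msh3 genotypes but was higher with each allele labelled as lost, from 26.4 to 32.5 CPM (TMM-scaled counts per library size) with none lost to 68.4 to 81.5 with 1 and 103 to 126 with both. The genotype names are therefore those of the labels throughout. Pde10a, a marker of striatal spiny projection neurons, was abundant in all 48 libraries, between 1285 and 2949 CPM. On the first component of the residuals, 4 libraries stood apart, with scores of at least 28.7 against at most 11.5 in the other 44 (Msh3-/- F1 and M1, Q140 X Msh3+/- F1, Q140 X Msh3-/- M1; F female, M male). The Q140 differences of Pcdh20, Pcdh19, Pcdh10 and Pcdh11x on both Msh3 backgrounds are given without them as well, as are some values of other members. Most other member values, such as those of the interactions, are given with them only. In 2 further libraries the summed CPM of 9 cortical excitatory neuron markers stood high, at 134 in Msh3+/- M4 and 135 in Q140 X Msh3-/- F2, against at most 88.6 in the rest, and Slc17a7, which encodes the cortical vesicular glutamate transporter, was at 67.0 and 64.4 CPM there.

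In WT striatum Pcdh1 led the members in level per transcript length. Its deposited FPKM (fragments per kilobase of transcript and library size) was 21.9 ± 1.12 (SD, n = 8), with the lowest mouse at 20.2, above every mouse for any other member. Pcdh10 followed at 15.9 ± 0.763 FPKM, Pcdh17 at 14.4 ± 1.84 FPKM and Pcdh9 at 13.8 ± 0.732 FPKM, and the ranges of each neighbouring pair of these 3 overlapped. Pcdh7 stood apart below them at 9.53 ± 0.466 FPKM. Pcdh11x (2.84 ± 0.313 FPKM) and Pcdh8 (2.15 ± 0.265 FPKM) overlapped, as did Pcdh19 (1.41 ± 0.156 FPKM) and Pcdh20 (1.32 ± 0.151 FPKM). Pcdh18 was lowest, at 0.652 ± 0.0908 FPKM, with no mouse reaching the lowest for Pcdh20. The member noticed for its rise was thus 1 of the 3 lowest in WT.

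**Figure D1:**
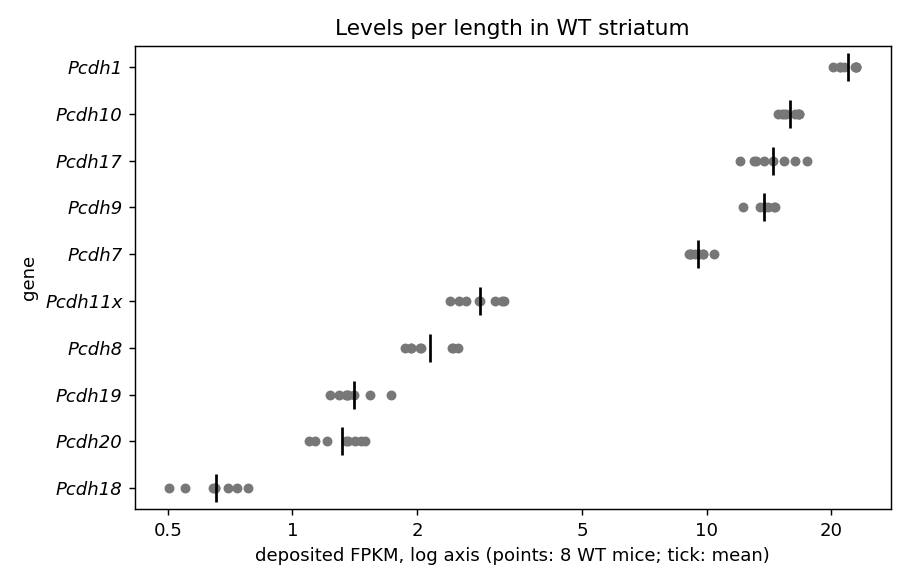
Deposited FPKM of the 10 members in the 8 WT mice on a log axis (points, 1 per mouse; tick, mean), ordered by mean. Pcdh1 is highest at 21.9 and Pcdh18 lowest at 0.652, and Pcdh19 and Pcdh20 overlap.

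The Q140 effect was read first on the Msh3-/- and Msh3+/- backgrounds. The groups of these 2 comparisons share no library with each other or with the WT and Q140 groups in which Pcdh20 was noticed. The fit itself used all 48 libraries, so WT and Q140 libraries enter the filter, the scaling and the estimate of the spread. Pcdh20, Pcdh19, Pcdh10 and Pcdh11x rose with Q140 on both backgrounds, and Pcdh9 was called higher on Msh3-/-. On the Msh3-/- background 5 of 10 members were called (5 higher, 0 lower) at an adjusted p of 0.05 in edgeR's quasi-likelihood test, where 7.86% of all genes were called, 4.01% higher and 3.84% lower. On the Msh3+/- background 5 of 10 were called (4 higher, 1 lower), where 21.5% of all genes were, 10.8% in each direction. The median log2 difference over the 10 members was 0.22 on Msh3-/- and 0.23 on Msh3+/-, against -0.0026 and 0.0083 over all genes tested. Scaled by total counts, the genes called on Msh3-/- split into 1252 higher and 623 lower instead of 791 and 758, and on Msh3+/- into 4507 and 1351 instead of 2120 and 2127. The 4 members higher on both backgrounds stayed higher under that scaling. On Msh3+/- it gave 6 members higher and 0 lower, with Pcdh9 (0.10, adjusted p = 0.049) and Pcdh18 (0.33, adjusted p = 0.0198) called and Pcdh7 not. In bulk tissue, fewer cells of a type and less RNA per cell cannot be told apart.

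Pcdh20 showed the largest difference of the family on both backgrounds. Its level (lowest, median, highest of 8 mice) was 5.61, 6.66 and 8.31 CPM in Msh3-/- and 9.24, 11.01 and 13.2 CPM in Q140 X Msh3-/- mice. Every mouse of the cross was above every Msh3-/- mouse. The difference was 0.69 on the log2 scale (SE 0.121, adjusted p = 0.000119), a 1.61-fold higher level. In Msh3+/- mice the values were 4.56, 6.59 and 9.98 CPM, and in Q140 X Msh3+/- mice 9.50, 14.2 and 19.2 CPM. The ranges overlapped there through the library Msh3+/- M4, at 9.98 CPM, and Q140 X Msh3+/- F4, at 9.50 CPM, and the remaining mice were separated. The log2 difference was 1.06 (SE 0.12, adjusted p = 1.66e-09), or 2.09-fold, and 1.16 (adjusted p = 6.80e-11) without Msh3+/- M4.

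Pcdh19, the X-linked gene known for an epilepsy that affects mosaic females, moved in the same direction. It ran from 9.46 over a median of 14.6 to 17.4 CPM in Msh3-/- and from 18.1 over 20.6 to 26.5 CPM in Q140 X Msh3-/- mice, with no overlap. The log2 difference was 0.57 (SE 0.0999, adjusted p = 0.000117). In Msh3+/- mice it ran from 11.2 over 14.01 to 22.7 CPM, where M4 held the top and the next mouse was at 15.0, and in Q140 X Msh3+/- mice from 22.5 over 26.9 to 29.2 CPM. The difference was 0.85 (SE 0.0992, adjusted p = 5.50e-09), and 0.96 (adjusted p = 7.28e-12) without Msh3+/- M4.

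Pcdh10, the delta-2 member of striatal axon growth, changed less in size but with the smallest error of the 4 members higher on both backgrounds. Its levels were 226, 248 and 265 CPM in Msh3-/- mice against 296, 314 and 335 CPM in Q140 X Msh3-/- mice. All 8 mice of the cross lay above all 8 Msh3-/- mice. The log2 difference was 0.36 (SE 0.0415, adjusted p = 1.22e-08), or 1.29-fold. In Msh3+/- mice the levels were 222, 240 and 302 CPM, and in Q140 X Msh3+/- mice 299, 313 and 348 CPM. Only Msh3+/- M4, at 302 CPM, reached into the range of the cross. The difference was 0.36 (SE 0.0415, adjusted p = 1.13e-09), and 0.40 (adjusted p = 2.18e-12) without that library.

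Pcdh11x, the X-linked delta-1 member, was the fourth gene higher on both backgrounds. It lay at 37.1, 40.5 and 46.4 CPM in Msh3-/- and 43.1, 49.0 and 60.1 CPM in Q140 X Msh3-/- mice, and the ranges overlapped. The log2 difference was 0.29 (SE 0.0636, adjusted p = 0.00204). It lay at 35.1, 40.1 and 48.6 CPM in Msh3+/- and 46.6, 53.3 and 58.4 CPM in Q140 X Msh3+/- mice, again overlapping. The difference was 0.38 (SE 0.0634, adjusted p = 6.38e-06). In both crosses all 8 mice were above the mean of the matched mice without Q140.

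Groups that did not overlap in CPM were found for 3 members on the Msh3-/- background (Pcdh10, Pcdh19, Pcdh20), where 1.09% of all genes did not overlap. On the Msh3+/- background none of the 10 did, where 4.6% of all genes did not overlap. Without the 4 libraries that stand apart, the differences on Msh3-/- were 0.80 for Pcdh20 (adjusted p = 0.000134), 0.66 for Pcdh19 (adjusted p = 9.94e-05), 0.40 for Pcdh10 (adjusted p = 2.13e-08) and 0.33 for Pcdh11x (adjusted p = 0.00152). On Msh3+/- the same omission left Pcdh20 at 1.06 (adjusted p = 9.94e-09) and Pcdh19 at 0.83 (adjusted p = 2.59e-08). Pcdh10 was then at 0.36 (adjusted p = 1.81e-09) and Pcdh11x at 0.35 (adjusted p = 3.93e-05).

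**Figure D2:**
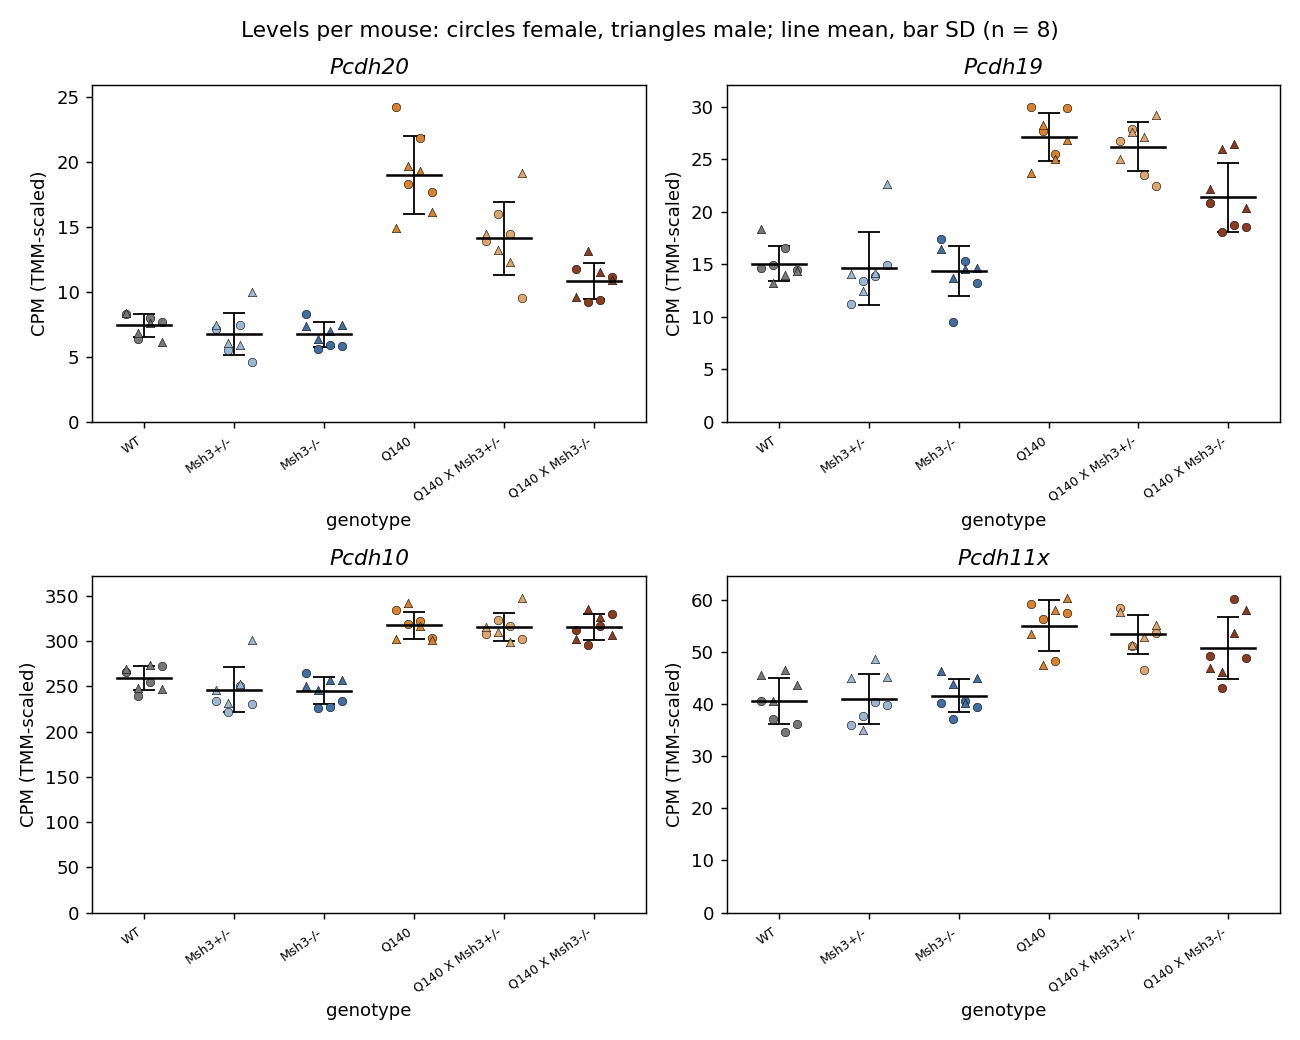
TMM-scaled CPM per mouse of Pcdh20, Pcdh19, Pcdh10 and Pcdh11x by genotype label (circles female, triangles male; line mean, bar SD, n = 8). The means of the 3 Q140 groups sit above those of the 3 groups without Q140 for each gene, while single mice overlap between some groups. The Msh3+/- male M4 sits high for Pcdh20 (9.98), Pcdh19 (22.7) and Pcdh10 (302).

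Of the remaining delta-1 members, Pcdh9 rose on 1 background. Its levels were 84.5, 94.0 and 96.8 CPM in Msh3-/- and 85.3, 104 and 112 CPM in Q140 X Msh3-/- mice, with a log2 difference of 0.15 (SE 0.0425, adjusted p = 0.0212). The lowest mouse of each group was its M1, and both M1 libraries are among the 4 that stand apart. Pcdh9 had a Pearson r of -0.54 with the component that separates those libraries, as a description over 48 libraries after the mean of each genotype and sex was taken out. Without the 4 libraries the difference was 0.17 (adjusted p = 0.00935), and without Msh3-/- M1 alone 0.13 (adjusted p = 0.0556). The call was also lost without Q140 X Msh3-/- F3 (adjusted p = 0.0549) or F4 (adjusted p = 0.0537). On the Msh3+/- background Pcdh9 differed by 0.04 (adjusted p = 0.601), and the test between the 2 backgrounds gave 0.11 (SE 0.06, adjusted p = 0.409).

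Pcdh7 was the member called lower. It lay at 92.7, 103 and 118 CPM in Msh3+/- and 92.4, 96.0 and 101 CPM in Q140 X Msh3+/- mice, so the ranges overlapped and all 8 mice of the cross were below the Msh3+/- mean. The log2 difference was -0.12 (SE 0.0436, adjusted p = 0.0466). It missed the threshold by total-count scaling (-0.05, adjusted p = 0.356) and without Msh3+/- M4 (-0.09, adjusted p = 0.154). On Msh3-/- it was -0.04 (adjusted p = 0.65). Pcdh1 differed by 0.05 on Msh3-/- (adjusted p = 0.393, 95% interval -0.01 to 0.12) and -0.01 on Msh3+/- (adjusted p = 0.818, 95% interval -0.08 to 0.05).

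None of the remaining delta-2 members passed on either background. Pcdh8 is an activity-induced gene also called arcadlin. Its levels were 7.81, 8.86 and 12.3 CPM in Msh3-/- and 9.50, 11.5 and 14.9 CPM in Q140 X Msh3-/- mice, with a log2 difference of 0.32 (SE 0.117, adjusted p = 0.0809). The highest Msh3-/- mouse was F1, a library that stands apart, and without the 4 such libraries the difference was 0.49 (adjusted p = 0.00771). It was 0.40 (adjusted p = 0.0253) without Msh3-/- F1 alone, and DESeq2 placed it just past the threshold (0.32, adjusted p = 0.0421). On Msh3+/- the difference was 0.19 (adjusted p = 0.284). Pcdh18, which binds the reelin adaptor Dab1, differed by 0.12 on Msh3-/- (adjusted p = 0.574) and 0.26 on Msh3+/- (adjusted p = 0.0779). The latter was 0.34 (adjusted p = 0.0171) without Msh3+/- M4, the highest Msh3+/- mouse at 4.61 CPM where the group ran from 2.26 over 3.08. Pcdh17 was at 117, 131 and 178 CPM in Msh3-/- and 116, 143 and 155 CPM in the cross, and its log2 difference was -0.0044 (adjusted p = 0.983, 95% interval -0.17 to 0.16). On Msh3+/- it was -0.04 (adjusted p = 0.813, 95% interval -0.20 to 0.13).

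**Figure D3:**
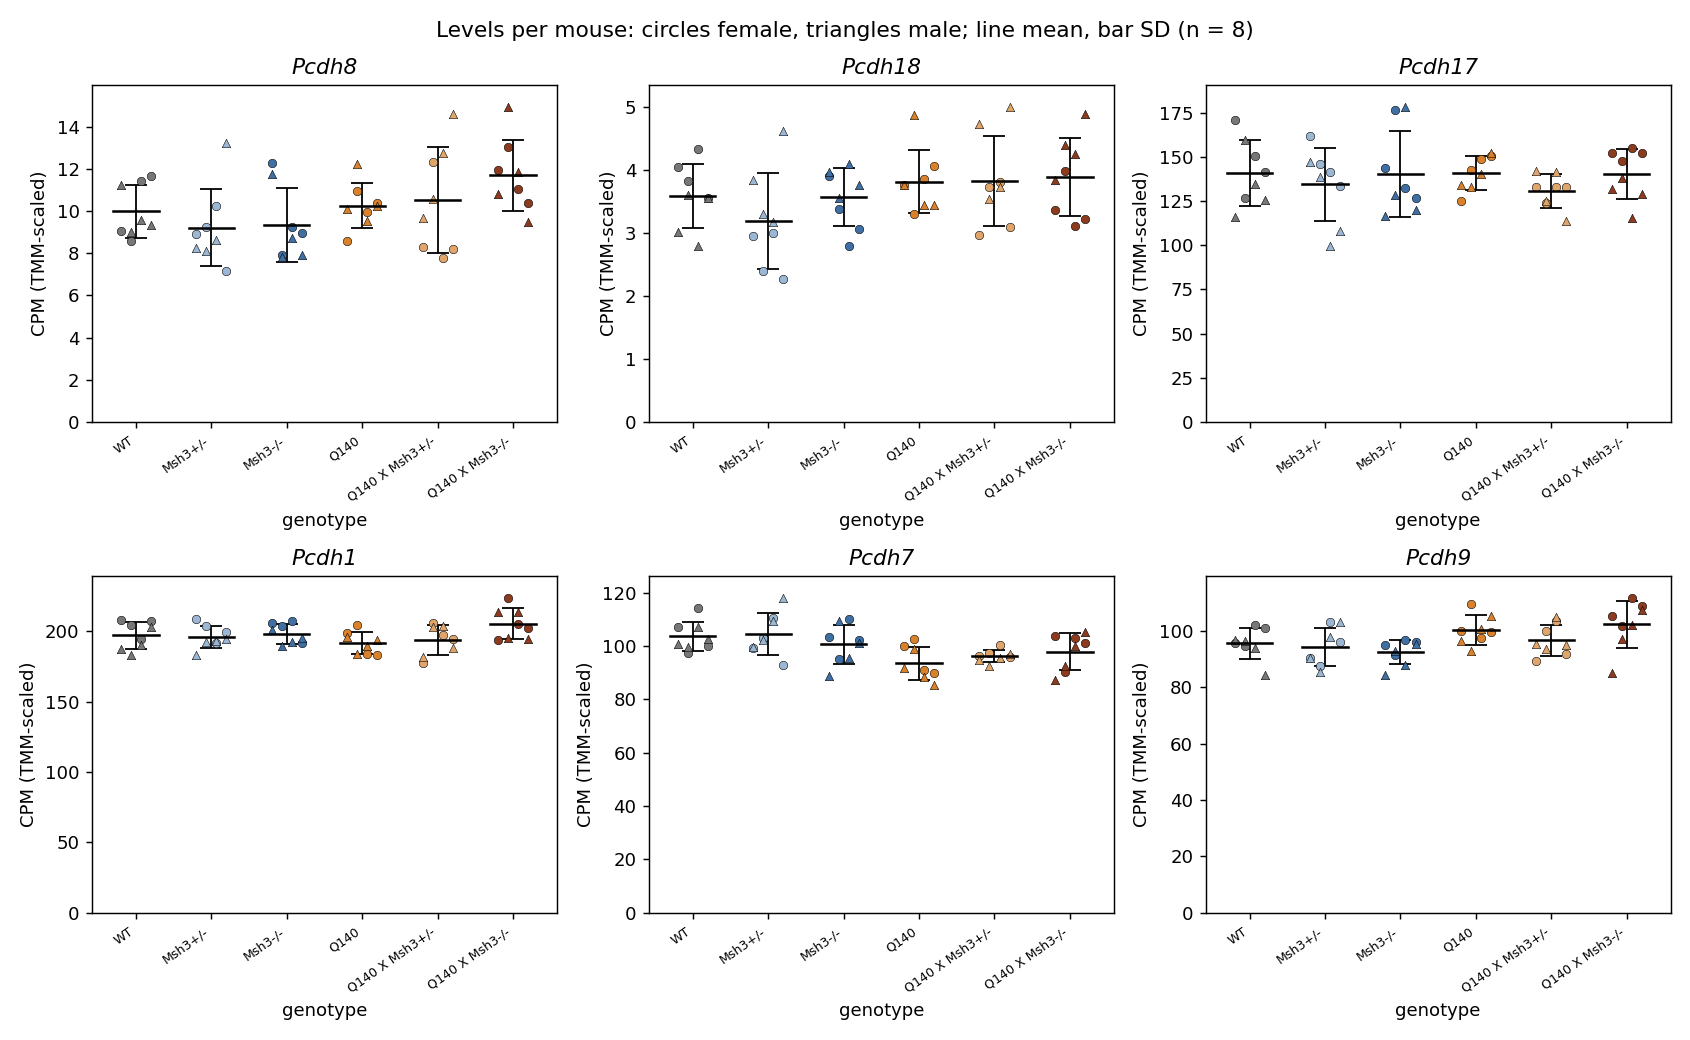
TMM-scaled CPM per mouse of Pcdh8, Pcdh18, Pcdh17, Pcdh1, Pcdh7 and Pcdh9 by genotype label (circles female, triangles male; line mean, bar SD, n = 8). The groups overlap for all 6 genes, and the lowest Pcdh9 mouse of Q140 X Msh3-/- is at 85.3.

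In the comparison in which the family was noticed, Q140 minus WT, Pcdh20 lay at 6.11, 7.65 and 8.37 CPM in WT and 14.9, 18.8 and 24.2 CPM in Q140 mice. Its log2 difference was 1.36 (SE 0.119), or 2.57-fold, and it has no test here because those values chose it. Of the 9 others, 3 were called higher and 1 lower, beside 33% of all genes called, with 17% called higher and 16% lower. By total counts the split over all genes was 5773 higher and 2064 lower instead of 3358 and 3148. Pcdh19 lay at 13.2, 14.6 and 18.4 CPM in WT and 23.7, 27.3 and 30.0 CPM in Q140 mice and rose by 0.85 (SE 0.0989, adjusted p = 2.24e-09). Pcdh11x lay at 34.6, 40.6 and 46.5 CPM against 47.5, 56.8 and 60.4 CPM and rose by 0.44 (SE 0.0634, adjusted p = 1.73e-07). Pcdh10 lay at 239, 261 and 274 CPM against 302, 318 and 342 CPM and rose by 0.30 (SE 0.0415, adjusted p = 7.52e-08). These 3 did not overlap between the groups, where 8.97% of all genes did not. Pcdh20 did not overlap either, which its choice by these libraries made likely, so it is not counted with them.

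Pcdh7 fell by 0.15 in Q140 minus WT (SE 0.0437, adjusted p = 0.00605), with all 8 Q140 mice below the WT mean but with overlapping ranges, and by 0.08 (adjusted p = 0.127) with total-count scaling. Pcdh8 differed by 0.04, Pcdh9 by 0.07, Pcdh17 by 0.0046, Pcdh18 by 0.08 and Pcdh1 by -0.04, none past the threshold. Pcdh9 passed with total-count scaling (0.14, adjusted p = 0.00355), which gave 4 members higher and 0 lower. It also passed in both limma fits (adjusted p = 0.0047 and 0.00468), which use FPKM and so share the scaling by library total. Some WT and Q140 sample names begin differently from all the others, in 2 libraries of each group. Among the libraries named alike, Pcdh20 differed by 1.45, Pcdh19 by 0.86 (adjusted p = 2.17e-07), Pcdh11x by 0.36 (adjusted p = 0.000139), Pcdh10 by 0.33 (adjusted p = 3.28e-07) and Pcdh7 by -0.11 (adjusted p = 0.103).

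**Figure D4:**
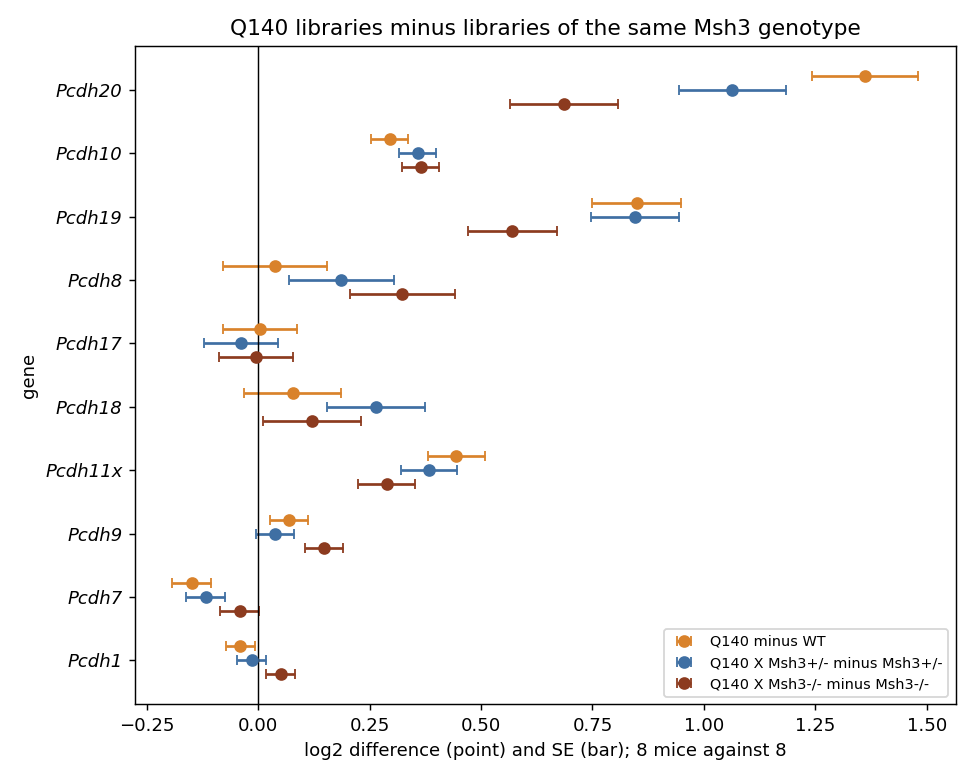
Log2 difference (point) and SE (bar) of the 10 members between Q140 libraries and libraries of the same Msh3 genotype, 8 mice against 8, on 3 backgrounds. Pcdh20 runs from 1.36 on WT over 1.06 on Msh3+/- to 0.69 on Msh3-/-, while Pcdh10 stays between 0.30 and 0.36. The Q140 minus WT value of Pcdh20 is a description, since it chose the gene.

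Whether the Q140 effect differed between the Msh3-/- and Msh3+/- backgrounds was tested as an interaction, and 0 of the 10 members passed, where 1.3% of all genes did. The value for Pcdh20 was -0.38 (SE 0.169, adjusted p = 0.292, 95% interval -0.72 to -0.04). For Pcdh19 it was -0.28 (SE 0.14, adjusted p = 0.37), and for Pcdh10 0.006 (SE 0.0586, adjusted p = 0.98, 95% interval -0.11 to 0.12). At an unadjusted p of 0.05, 1 of the 10 members and 2777 of all genes passed. Without the 4 libraries that stand apart, all of which belong to groups of this test, 152 genes were called instead of 256. Between the Msh3-/- and WT backgrounds 0 of 9 members passed, where 6.15% of all genes did, 4.09% higher and 2.06% lower. Pcdh19 was at -0.28 there (SE 0.14, adjusted p = 0.271), and Pcdh20, with no test, at -0.68 (SE 0.168). Between the Msh3+/- and WT backgrounds 0 of 9 passed, where 0.0152% of all genes did, and Pcdh20 was at -0.30 (SE 0.167, no test).

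The loss of Msh3 among Q140 mice was compared directly as well. In Q140 X Msh3-/- minus Q140, 2 of 9 members were called, 1 higher and 1 lower, where 16.3% of all genes were, 8.75% higher and 7.57% lower. Pcdh19, with 18.1, 20.6 and 26.5 CPM in the cross and 23.7, 27.3 and 30.0 CPM in Q140 mice, was lower by a log2 difference of -0.35 (SE 0.0973, adjusted p = 0.00906), with all 8 mice of the cross below the Q140 mean. The 4 females of the cross lay between 18.1 and 20.8 CPM and its 4 males between 20.4 and 26.5 CPM. In females alone the difference was -0.57 (adjusted p = 0.00273) and in males alone -0.12 (adjusted p = 0.743). The difference between the sexes in this comparison was not tested.

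Pcdh1 was the member called higher, by 0.10 (SE 0.0326, adjusted p = 0.0281). It lay at 183, 192 and 204 CPM in Q140 and 193, 204 and 224 CPM in Q140 X Msh3-/- mice, and the call was lost without the 4 libraries that stand apart (0.09, adjusted p = 0.0526). It was also lost when any of 5 single libraries was left out (Q140 F3 and F4 and Q140 X Msh3-/- F2, M1 and M3), with adjusted p between 0.0677 and 0.0862. Pcdh20 was lower by 0.81 (SE 0.116), with no test since the Q140 libraries chose it. Its 2 groups did not overlap, where 2.87% of all genes did not, and for the same reason this is a description only. Pcdh10 differed by -0.0083 (SE 0.0414, adjusted p = 0.927, 95% interval -0.09 to 0.07) and Pcdh11x by -0.12 (SE 0.0629, adjusted p = 0.211, 95% interval -0.25 to 0.01). This comparison and Q140 minus WT share the 8 Q140 libraries.

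In Q140 X Msh3+/- minus Q140, 0 of 9 members passed (0 of the 9 and 14% of all genes at an unadjusted p under 0.05), where 1.32% of all genes did, 0.842% higher and 0.477% lower. Pcdh20, with no test, was at -0.43 (SE 0.114), and Pcdh19 at -0.05 (SE 0.0965, adjusted p = 0.851). Between the crosses, Q140 X Msh3-/- minus Q140 X Msh3+/-, no WT or Q140 library enters and all 10 were tested. None of the 10 passed, where 3.23% of all genes did (2.29% higher, 0.938% lower), and 3 of the 10 had an unadjusted p under 0.05, as did 15.2% of all genes. Pcdh20 was lower by a log2 difference of -0.38 (SE 0.116, adjusted p = 0.0578), with all 8 Q140 X Msh3-/- mice below the mean of the other cross and overlapping ranges. Pcdh19 was at -0.30 (SE 0.0973, adjusted p = 0.0877), with 1 of 8 mice above that mean. DESeq2 placed Pcdh20 past the threshold (-0.38, adjusted p = 0.0187), and so did leaving out the library Msh3+/- M4, which is in neither group but shares in the estimate of the spread (adjusted p = 0.0345).

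Without Q140, no tested member passed between the Msh3 labels, and almost no gene of any kind did, so the counts say little about the family. In Msh3-/- minus WT 0 of 9 members passed, where 0.0457% of all genes did (0.0101% higher, 0.0355% lower), and in Msh3+/- minus WT 0 of 9 passed, where 0.0101% did. None of the 9 had an unadjusted p under 0.05 in either (6.02% and 4.75% of all genes), and 0 members had separate ranges, where 0.0507% of all genes did in Msh3-/- minus WT. Pcdh10 differed by -0.08 (95% interval -0.16 to 0.01) in Msh3-/- and by -0.07 (95% interval -0.16 to 0.01) in Msh3+/- mice. Pcdh19 differed by -0.07 (95% interval -0.27 to 0.13) and -0.05 (95% interval -0.25 to 0.15). Pcdh20, described without a test, differed by -0.14 (SE 0.123) and -0.14 (SE 0.122). Pcdh18 showed the largest difference without Q140, at -0.19 in Msh3+/- mice (SE 0.11, adjusted p = 0.981).

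Between the sexes, over all genotypes, 0 of 10 members passed, where 4.26% of all genes did (1.65% higher, 2.61% lower), and 5 of the 10 had an unadjusted p under 0.05, as did 18.3% of all genes. Pcdh18 was at 0.19 (SE 0.0631, adjusted p = 0.0692) in males minus females and X-linked Pcdh11x at 0.11 (SE 0.0366, adjusted p = 0.091). In WT mice Pcdh11x ran from 34.6 to 40.6 CPM in the 4 females and from 40.6 to 46.5 CPM in the 4 males. Pcdh18 in WT went the other way, with 3.55 to 4.32 CPM in females and 2.80 to 3.60 CPM in males. X-linked Pcdh19 was at 0.10 (SE 0.0572, adjusted p = 0.337) and Pcdh20 at 0.05 (SE 0.0686, adjusted p = 0.768). The Q140 effect itself, averaged over the Msh3+/- and Msh3-/- backgrounds, differed between the sexes for 0 of 10 members and 0 genes in all by edgeR (552 genes at an unadjusted p under 0.05). For Pcdh20 the male minus female value was -0.06 (95% interval -0.40 to 0.28) and for Pcdh19 0.05 (95% interval -0.23 to 0.32).

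The members were also compared mouse by mouse after the mean of each genotype and sex was taken out, as a description over 48 libraries. Both genes of a pair share the depth and dissection of each library. Of 45 pairs 28 had a positive Pearson r, 7 were above 0.5 and none below -0.5. Without Msh3+/- M4 some of these 7 were below 0.5: Pcdh7 with Pcdh9 (0.487), Pcdh8 with Pcdh10 (0.485), Pcdh8 with Pcdh20 (0.4996) and Pcdh10 with Pcdh19 (0.479). The highest of the 45 was Pcdh10 with Pcdh20, at r = 0.81 (Spearman's rho 0.81), and it was 0.78 without Msh3+/- M4 and 0.79 without the 4 libraries that stand apart. Pcdh8 with Pcdh19 reached 0.64 (rho 0.55; 0.58 without Msh3+/- M4) and Pcdh10 with Pcdh19 0.59 (rho 0.40; 0.48 without that library). Pcdh18 with Pcdh20 reached 0.55 (rho 0.52). The lowest was Pcdh17 with Pcdh19, at -0.49 (rho -0.49). Pcdh11x, though higher with Q140 on both backgrounds, had r = 0.04 (rho 0.07) with Pcdh20 and 0.16 (rho 0.15) with Pcdh10.

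**Figure D5:**
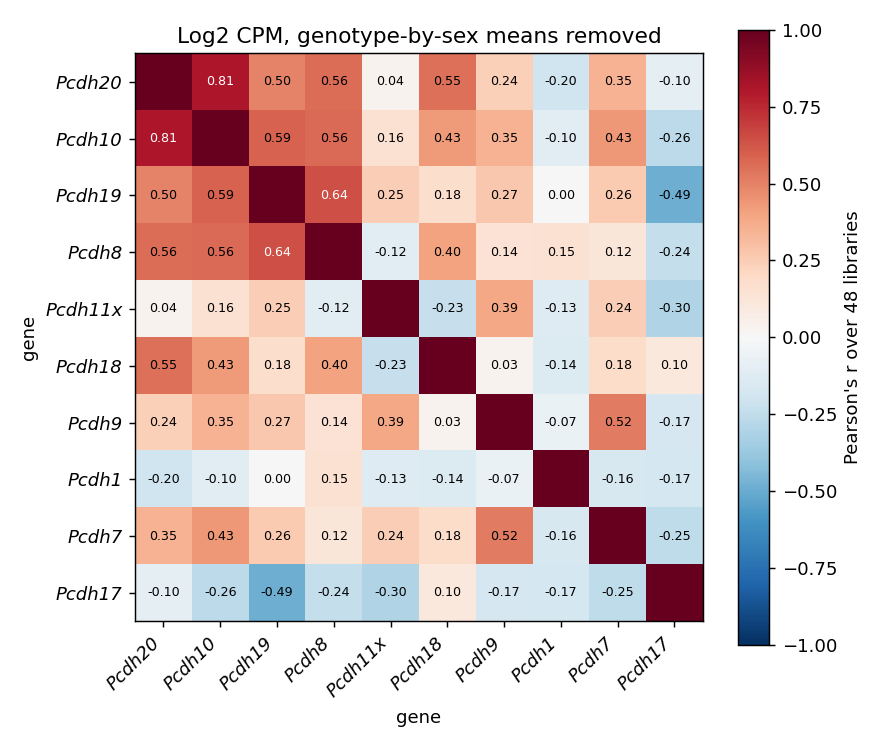
Pearson's r of log2 CPM between members over 48 libraries, after subtracting each genotype-by-sex mean. Pcdh20, Pcdh10, Pcdh19 and Pcdh8 form the warm corner, with r = 0.81 for Pcdh10 and Pcdh20, and Pcdh17 with Pcdh19 is the coldest cell at -0.49.

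Among 13832 genes ranked by likeness to Pcdh20 over all 48 libraries, Fam196b stood first (r = 0.94, rho 0.94), followed by Stmn2 (0.94, rho 0.93), Syp (0.92, rho 0.90), Cd200 (0.92, rho 0.87), Sfmbt2 (0.92, rho 0.89) and Cnrip1 (0.91, rho 0.89). This ranking is led by the difference between genotypes that chose Pcdh20. With the genotype-by-sex means removed, Pcdh10 stood first of all genes (r = 0.81), followed by Mrpl35 (0.72, rho 0.74), Elavl4 (0.71, rho 0.68), Pxk (0.71, rho 0.66), Kcnd3 (0.71, rho 0.70) and Usp31 (0.71, rho 0.70). The only member among either set of 6 was Pcdh10.

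Markers of striatal cell types moved with the same groups. The summed CPM of 12 spiny projection neuron markers ran from 13408 to 15657 in the 8 Msh3-/- mice and from 10500 to 13138 in Q140 X Msh3-/- mice, and 8 of the 12 fell (Pde10a -0.48, Ppp1r1b -0.37, Adcy5 -0.32). On the Msh3+/- background all 12 fell, and the sum went from 13991 to 15180 in Msh3+/- to 9238 to 10977 in the cross. Mouse by mouse, with genotype-by-sex means removed, the sum had r = -0.65 with Pcdh8 (rho -0.54), -0.58 with Pcdh19 (rho -0.54), -0.50 with Pcdh20 (rho -0.44) and -0.36 with Pcdh10 (rho -0.28), over 48 libraries scaled to the same total. With the other members r ran from -0.21 (Pcdh18) to 0.21 (Pcdh11x, which also rose on both backgrounds). The sum of 6 indirect-pathway markers of these neurons had weaker values: -0.27 with Pcdh8, -0.27 with Pcdh19, -0.18 with Pcdh20 and -0.08 with Pcdh10. Its r with the others ran from -0.09 (Pcdh17) to 0.40 (Pcdh7). For 7 direct-pathway markers r was -0.48 with Pcdh8, -0.35 with Pcdh19, -0.40 with Pcdh20 and -0.30 with Pcdh10. The others ran there from -0.32 (Pcdh18) to 0.37 (Pcdh1). The part of these markers in the members' differences was not tested. Of the 5 tested thalamic, pallidal and hypothalamic markers none was called on Msh3-/-, and their summed CPM, 38.6 to 53.8 in Msh3-/- and 42.0 to 51.0 in the cross, had r = 0.61 with Pcdh8 (rho 0.57), 0.53 with Pcdh19 (rho 0.51) and 0.37 with Pcdh20 (rho 0.38). The other members ran from -0.39 (Pcdh17) to 0.37 (Pcdh9). The summed CPM of 6 oligodendrocyte precursor markers, 140 to 166 in Msh3-/- and 139 to 169 in the cross, had r = 0.48 with Pcdh20 (rho 0.53), 0.43 with Pcdh18 (rho 0.45) and 0.40 with Pcdh10 (rho 0.38). For the remaining members r lay between -0.29 (Pcdh11x) and 0.25 (Pcdh7). The summed cortical markers had r = 0.48 with Pcdh18 (rho 0.40), 0.33 with Pcdh8 (rho 0.24), 0.24 with Pcdh20 and 0.24 with Pcdh10. Their r with the rest lay between -0.09 (Pcdh7) and 0.20 (Pcdh1). The marker lists shown here are those with the largest r. The 2 others of the thalamic, pallidal and hypothalamic list, Hcrt and Avp, had at most 5 and 20 counts in any library.

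On the Msh3-/- background 3.84% of all genes were called lower and 4.01% higher. Of the indirect-pathway markers 4 of 6 fell (Penk -0.52, Adora2a -0.38, Drd2 -0.27), and of the direct-pathway markers 2 of 7 fell (Drd1 -0.29, Chrm4 -0.26) and Isl1 rose (0.16). Lower calls were made for 1 of 12 interneuron (Nos1 -0.13), 1 of 10 astrocyte (Slc1a2 -0.14), 3 of 10 oligodendrocyte (among them Aspa -0.21 and Cldn11 -0.18) and 1 of 10 vascular markers (Flt1 -0.55), and for none of the 10 microglial, 6 oligodendrocyte precursor or 6 ependymal ones. On Msh3+/-, where 10.8% of all genes were called lower, 4 of 12 interneuron, 4 of 10 astrocyte, 5 of 10 oligodendrocyte, 6 of 10 vascular and 1 of 10 microglial markers were lower. In Q140 minus WT, where 16% were, these counts were 5, 6, 4, 7 and 7, and 2 of 6 oligodendrocyte precursor markers were lower. Of the 9 cortical markers 1, Cux2, was called on Msh3-/-, where it rose by 0.28. The median log2 difference over the 9 was 0.62 on Msh3-/- and -0.16 on Msh3+/-. Their sum ran from 44.4 to 88.6 CPM in Msh3-/- and from 49.2 to 135 CPM in Q140 X Msh3-/- mice. The library at 135, F2, was the lowest of its group for Pcdh20 (9.24 CPM), Pcdh19 (18.1 CPM) and Pcdh10 (296 CPM), whereas Msh3+/- M4, at 134, was the highest of its group for all 3. With the summed cortical markers as a term, the difference on Msh3-/- was 0.64 for Pcdh20 (adjusted p = 0.000364), 0.54 for Pcdh19 (adjusted p = 0.000403), 0.35 for Pcdh10 (adjusted p = 5.21e-08) and 0.28 for Pcdh11x (adjusted p = 0.00425).

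Genes of the pathways that delta protocadherins are known to act through changed little in size on the Msh3-/- background, where 7.86% of all genes were called. Of 9 genes of the WAVE complex 1 rose (Wasf1, 0.09, SE 0.0287, adjusted p = 0.0315) and 8 did not pass, with a median of -0.07. On Msh3+/-, where 10.8% of all genes were called in each direction, 1 rose and 5 fell, with a median of -0.11. All 3 catalytic subunits of protein phosphatase 1, the partner of the delta-1 group, fell on Msh3-/-: Ppp1ca by -0.17 (SE 0.04, adjusted p = 0.00336), Ppp1cb by -0.12 (SE 0.0288, adjusted p = 0.00495) and Ppp1cc by -0.20 (SE 0.0624, adjusted p = 0.0347). On Msh3+/- 2 of the 3 fell. Of 9 other reported partners and turnover factors, such as Set, Taok2 and Dab1, none passed on Msh3-/-, and 2 rose and 2 fell on Msh3+/-.

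Related adhesion genes moved both ways, beside 4.01% of all genes called higher and 3.84% lower on Msh3-/- and 10.8% each way on Msh3+/-. Of 17 tested cadherins 3 rose on Msh3-/- and none fell: Cdh18 by 0.42 (SE 0.0698, adjusted p = 3.10e-05), Cdh6 by 0.28 (SE 0.0741, adjusted p = 0.00969) and Cdh10 by 0.20 (SE 0.0529, adjusted p = 0.0107). On Msh3+/- 4 rose and 4 fell. Of 7 catenins, the cytoplasmic linkers of classical cadherins, Ctnnb1 rose (0.08) and Ctnna1 fell (-0.11) on Msh3-/-. Of 12 tested large cadherins and other protocadherin-named genes, Fat1 rose by 0.40 (SE 0.0375, adjusted p = 4.54e-11) and Dchs2 by 0.24 (SE 0.0702, adjusted p = 0.0266), and Cdh23 fell by 0.39 (SE 0.126, adjusted p = 0.0446). The median difference on Msh3-/- was 0.03 over the cadherins and -0.02 over the large cadherins, against 0.22 over the 10 delta protocadherins. The latter include Pcdh20, for which the family was chosen, and 5 members that were not called. In Q140 minus WT the medians were closer, at -0.04, 0.01 and 0.07.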

How the data were processed

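Striatal RNA was measured by stranded TruSeq RNA-seq in 48 mice, per the labels' protocols. The authors deposited whole-number counts per gene, not normalized, and FPKM values for the same genes. In 16958 genes checked, dividing the deposited FPKM by the count over library total gave 1 constant for each gene, to within a relative deviation of 3.1e-07. Alignment and counting tools listed in the submitters' processing notes are HTSeq 0.12.3, SAMtools 1.10 and STAR 2.7.5c, with the build GRCm38 (mm10). Annotation release and strand setting: not given in the sources used here.

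Groups, sexes and replicate numbers came from the sample titles. Genes were kept by filterByExpr by group (minimum count 10), which left 19714. For testing, the counts went into edgeR 4.0.16 under R 4.3.3 (scaled by TMM, robust quasi-likelihood F-test, genotype and sex as terms, 41 residual degrees of freedom) in 13 comparisons, with Benjamini-Hochberg adjustment across the 19714 genes (threshold 0.05). An adjusted p with no tool named comes from edgeR. P-values measure the spread between these mice. CPM is the count per TMM-scaled library size, and 95% intervals come from the same fit. Levels between genes use FPKM only. The test was checked on simulated data with 200 changed genes.

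Alternatives were DESeq2 1.42.0, limma 3.58.1 on log2(FPKM + 0.1) or log2(FPKM + 1), RLE and total-count scaling, no filter, other terms, subsets of libraries and each library left out in turn. Omitting the 4 libraries that stand apart and a term for cortical markers were chosen after seeing the data. The members and the gene lists were chosen with earlier results of these data known. All 10 members are named. Of each other list, up to 3 genes with the smallest p past the threshold in Q140 X Msh3-/- minus Msh3-/- are named, with 6 genes most like Pcdh20 before and after removing genotype-by-sex means, and Msh3. A gene that this rule names is not reported here.

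Sequences are from RefSeq (GRCm38.p6) and positions from GENCODE M21. Pcdh20 has no test in any comparison of genotypes in which WT or Q140 is one of the groups compared. The sex term is fitted over all genotypes and was tested for all 10. Samples with the same replicate number did not deviate together: 10 of 120 such pairs had r above 0.1.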

Additional observations from a re-analysis of the deposited data

Results flagged for a closer look

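A library lay far from the other 7 of its group in 3 of the 60 combinations of member and genotype checked (Dixon's test at the 95% level, which marks about 1 in 20 groups by chance). Pcdh9 in WT M4 was low, at 84.3 CPM, with the nearest mouse at 94.1 CPM. Pcdh10 in Msh3+/- M4 was high, at 302 CPM, with the nearest at 253 CPM. Pcdh19 in the same Msh3+/- library was high, at 22.7 CPM, with the nearest at 15.0 CPM. This library also held the highest Pcdh20 (9.98 CPM) and Pcdh8 (13.2 CPM) of its group. Its Slc17a7, a cortical excitatory neuron marker, was at 67.0 CPM, and the part of that signal in its protocadherin levels was not tested.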

How the results depend on the processing

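Pcdh20 and Pcdh10 kept their calls on both Msh3 backgrounds under each of the 15 other settings and with each of the 48 libraries left out. Pcdh20 ranged from 0.43 (limma on log2(FPKM + 1)) to 0.80 on Msh3-/- and from 0.72 to 1.13 on Msh3+/- over those settings. No called value reversed its direction. Over all members and comparisons, 25 of 1860 values lost and 26 gained a call under the other settings, and 20 and 17 of 6240 with single libraries left out.

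The count of members called in Q140 X Msh3-/- minus Msh3-/-, 5, was 3 with females only and 3 with males only, where Pcdh19 (0.45, adjusted p = 0.0698) or Pcdh11x (0.22, adjusted p = 0.272) and, in both, Pcdh9 were lost. It was 6, with Pcdh8 added, with DESeq2 (adjusted p = 0.0421), limma on log2(FPKM + 0.1) (adjusted p = 0.0494) and without the 4 libraries that stand apart. The fits to 1 sex hold fewer samples. In Q140 X Msh3-/- minus Q140 the count of 2 was 1 with total-count scaling, no filter, only libraries named Mh3Q, females only, either limma fit or without the 4 libraries that stand apart, 0 with males only, and 1 to 2 with single libraries left out. In Q140 X Msh3-/- minus Q140 X Msh3+/- the count of 0 was 2 with total-count scaling or either limma fit, 1 with the replicate block, the 2 groups alone, DESeq2 or the cortical term, and 0 to 2 with single libraries left out. For male minus female the count of 0 was 2 with total-count scaling, 1 with only libraries named Mh3Q, either limma fit or DESeq2, and 0 to 1 with single libraries left out. The limma fits use FPKM, which is scaled by library total, so they are not independent of the total-count setting. The cause of these changes in count was not tested. Pcdh7's fall in Q140 X Msh3+/- minus Msh3+/- was lost in 12 of the single-library omissions.

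The replicate block, the number and sex in the titles, left Pcdh20 at -0.37 (adjusted p = 0.044) in Q140 X Msh3-/- minus Q140 X Msh3+/- and changed no other call of a member. The numbers pair no samples by the labels. No paired analysis of the sex comparisons was possible because the block holds the sex.

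By total counts, genes called split into 1283 higher and 2869 lower instead of 1725 and 1492 in Q140 X Msh3-/- minus Q140, 252 and 679 instead of 452 and 185 between the crosses, and 687 and 281 instead of 325 and 514 for male minus female. The interaction splits were 93 and 176 instead of 183 and 73 (Msh3-/- against Msh3+/-) and 537 and 1194 instead of 806 and 407 (Msh3-/- against WT). Counts down to 101 limit the precision of Pcdh18.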

Other observations

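Genes near Pcdh20 on chromosome 14 were few. Within 5 Mb of it, 6 other genes were tested, and on the Msh3-/- background 2 of them were called higher and none lower: Pcdh9 (0.15) and Gm10110 (0.21, adjusted p = 0.0232), a predicted gene 1.42 Mb away that was named after its values were seen. On the Msh3+/- background 1 was called, Gm10110 (0.19, adjusted p = 0.0209). Pcdh17, 3.93 Mb away, was at -0.0044 and -0.04. Near Pcdh10, 27 genes were tested within the same distance, of which 1 was called higher and 2 lower on Msh3-/-, and near Pcdh19, 55 were tested, of which 13 were called higher and 1 lower. On Msh3+/- these counts were 7 higher and 3 lower near Pcdh10 and 22 higher and 4 lower near Pcdh19. Over all genes tested, 4.01% were called higher and 3.84% lower on Msh3-/-, and 10.8% each way on Msh3+/-. Other members varied as well: on Msh3-/-, 25 of 158 genes near Pcdh1 were called higher and 6 lower, and 0 of 37 near Pcdh8 were called. Neighbouring genes are not independent of each other, and these counts were not tested.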
